A study of Arabidopsis thaliana with 18 samples.

Results

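The 6 genes described here encode response regulators of the two-component system through which Arabidopsis thaliana senses the hormone cytokinin. They were taken by gene symbol: RR16 and ARR15, which are type-A regulators, and RR18, RR19, RR22 and RR23, which were grouped as type-B. RR22 is usually placed in a separate class, type-C, so it is called type-C below. Each gene had 1 probe set of its own, and they are 6 of the 13350 genes with such a probe set among the 22746 probe sets tested.

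The arrays were ATH1 arrays of whole Col-0 seedlings whose label gives a T-DNA mutation as the genetic variation, and all of them carried DUO1 in pMDC7. pMDC7 is an oestradiol-inducible vector, and DUO1 encodes a MYB protein that controls genes of male germ cells in pollen, so it was switched on outside its usual cells. Seedlings had spent 3 days at 4 °C and 12 days at 22 °C in constant light on hygromycin plates without sugar before treatment. DUO1 was induced for 6 h, 12 h or 24 h, and plants without induction were taken at the same 3 times, which gave 6 groups of 3 arrays. The labels do not name the inducer, its dose, the number of transgenic lines or whether replicates were separate cultures, and every plant carried the construct, so treatment and DUO1 cannot be told apart.

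Cytokinin binds histidine kinase receptors in membranes, and the signal passes as a phosphate group through phosphotransfer proteins to response regulators. Type-B regulators carry a DNA-binding domain and switch on cytokinin-responsive genes. Type-A genes are among the first targets of the type-B proteins, and type-A proteins have a receiver domain with no DNA-binding domain and dampen the response, so their transcripts are widely used as a readout of cytokinin signalling. Type-C regulators have a receiver domain alone.

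Values are MAS5 signals on a linear scale, and their trimmed mean was 100 on every array as deposited. Array medians ranged from 34.3 to 39.5. A signal is called background here where it did not exceed the highest of the 27 control probe sets for transcripts not added to the sample, a level of 3.3 to 10.1 over the arrays. MGH3, a sperm cell histone gene and known DUO1 target, served as the check of the labels and read 144 to 643 on the 9 induced arrays and 0.75 to 6.04 on the 9 others. In whole seedlings, fewer cells of a type and less RNA per cell cannot be told apart.

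RR16, a type-A gene known from the shoot and the stomatal lineage, was the 1 regulator above background on all 18 arrays. ARR15, a type-A gene known for its part in root stem cell formation in the embryo, was above background on 10 arrays, 3 of the induced and 7 of the plants without induction. RR18 exceeded background on 8 arrays and RR19 on 6, evenly split between induced plants and plants without induction. RR23 and RR22 did so on 0 of 18. RR22 is known from flowers and developing seeds, and its signal never passed 0.84. The median signal over all 18 arrays was 16.5 for RR16 and 6.57 for ARR15.

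**Figure D1:**
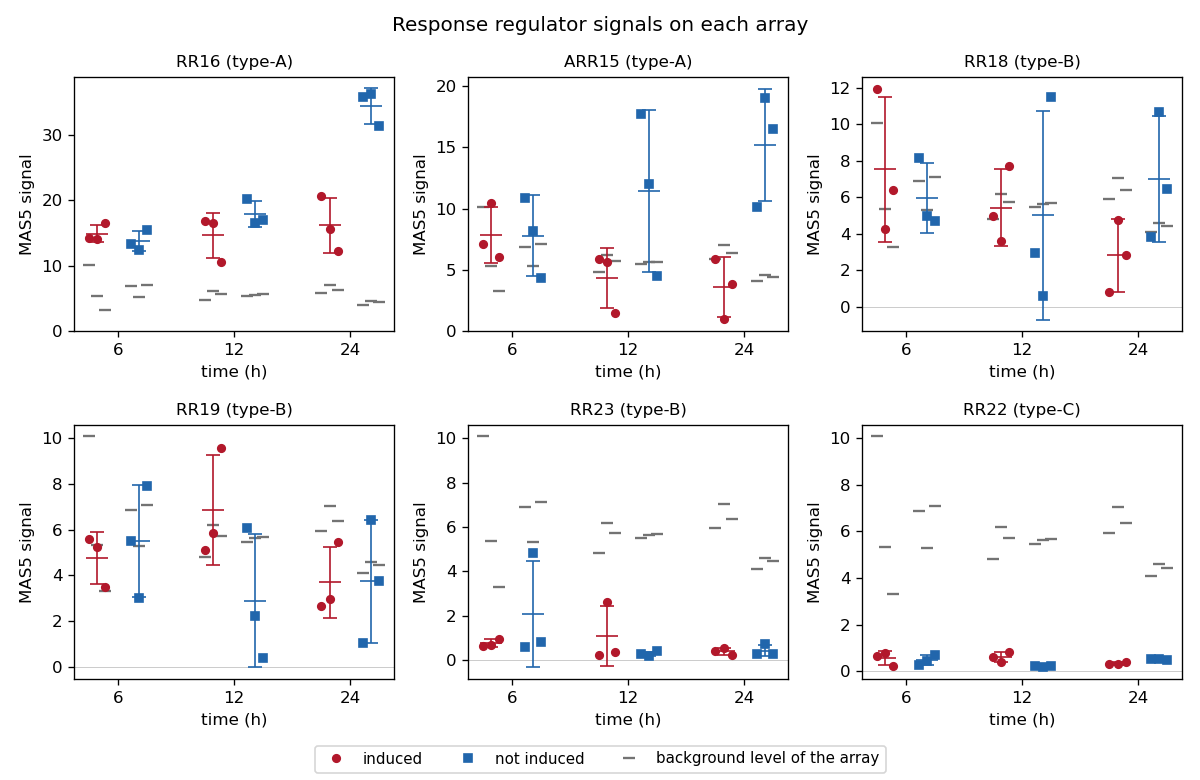
MAS5 signal (y axis, linear) of each regulator against time in hours, with 1 point per array, induced plants in red circles and plants without induction in blue squares, group mean ± SD as bars (n = 3), and the background level of each array as a grey dash. RR16 and ARR15 were lower in induced plants at 24 h, and all points of RR23 and RR22 lie under the grey dashes.

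At 24 h both type-A genes were lower in induced plants. RR16 read 20.6, 15.6 and 12.3 on the induced arrays, against 35.7, 36.2 and 31.3 on the arrays without induction. The groups did not overlap, and the highest induced array lay well under the lowest array without induction. The mean signal was 16.2 ± 4.18 in induced plants and 34.4 ± 2.69 in plants without induction (SD, n = 3 each), a log2 change of -1.12 ± 0.26 (SE; 95% interval -1.67 to -0.57; limma, adjusted p = 0.00977).

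ARR15 read 5.88, 1.01 and 3.86 on the induced arrays at 24 h, all at background, against 10.1, 19.0 and 16.5 without induction, all above it. The signal of 5.88 lay just under the background level of its array, 5.93. The levels of the arrays without induction were lower, 4.1 to 4.6. Again the groups were separate. The mean was 3.58 ± 2.45 in induced plants and 15.2 ± 4.55 in plants without induction (SD, n = 3 each). Since the induced level has only an upper bound, the difference was at least 2.28-fold. The limma fit of the signals as deposited gave a log2 change of -2.37 with an adjusted p of 0.0326.

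These 2 were the members that passed the test at 24 h, where 8.33% of all probe sets passed and 3.9% passed as lower in induced plants. Groups without overlap were found for 26.5% of all probe sets at 24 h, 12.1% with the induced arrays lower. Of all probe sets 5.79% had a more negative 24 h change than RR16. No such rank is given for ARR15, whose induced level has only an upper bound. On the induced 24 h arrays the background level was 5.93 to 7.05, against 4.1 to 4.6 without induction. The spiked hybridisation controls averaged 7.93 to 8.90 on the log2 scale on induced arrays and 7.72 to 8.20 on those without induction. With these controls as a covariate the adjusted p by limma became 0.0667 for RR16 and 0.187 for ARR15, and without the third induced array 0.0668 and 0.0563. The ARR15 call was also lost without the second induced array (0.195) and without the second or the third array of plants without induction (0.121 and 0.106). With every signal under background raised to it, the ARR15 change was -1.19 (limma, adjusted p = 0.0231).

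At 6 h neither type-A gene passed the test. RR16 read 14.2, 14.1 and 16.5 in induced plants, against 13.4, 12.4 and 15.5 in plants without induction (log2 change 0.12, 95% interval -0.43 to 0.67, limma adjusted p = 0.903). ARR15 read 7.11, 10.4 and 6.02 in induced plants, against 10.9, 8.15 and 4.38 in plants without induction (log2 change 0.07, 95% interval -1.34 to 1.47, limma adjusted p = 0.983). For both genes the arrays of the 2 groups overlapped. Of the 6 members, 0 passed limma at 6 h, where 0.967% of all probe sets passed. An unadjusted p under 0.05 was found for 0 members and for 13% of all probe sets.

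At 12 h the type-A signals still overlapped between the groups. RR16 read 16.8, 16.5 and 10.6 in induced plants, against 20.2, 16.6 and 17.1 in plants without induction (log2 change -0.32, 95% interval -0.87 to 0.23, limma adjusted p = 0.611). The third induced array was the low one. ARR15 read 5.92, 5.63 and 1.53 in induced plants, 2 of 3 at background, against 17.7, 12.0 and 4.55 in plants without induction. Its log2 change was -1.42 (95% interval -2.82 to -0.01, limma adjusted p = 0.297). By limma 0 of the 6 members passed at 12 h, where 4.84% of all probe sets passed. An unadjusted p under 0.05 was found for 2 members, ARR15 and RR19, and for 16.6% of all probe sets.

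**Figure D2:**
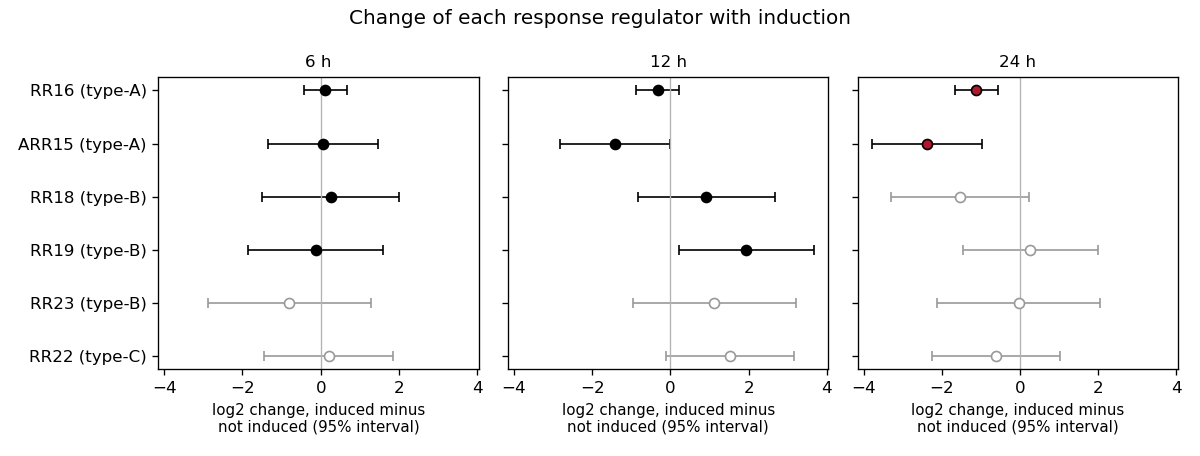
Log2 change of each regulator, induced minus not induced (x axis), at 6 h, 12 h and 24 h, as the limma estimate with its 95% interval. Red points passed the adjusted test and black points did not. Open grey points mark changes not measured. There all arrays were at background, or all induced ones with a log2 mean without induction no higher than their background. Black points of ARR15, RR18 and RR19 also hold some arrays at background. Only RR16 and ARR15 at 24 h are red, and the ARR15 estimate there rests on induced arrays at background.

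Over the 3 times together, RR16 had an F of 6.54 (limma, adjusted p = 0.0341) and ARR15 an F of 5.59 (limma, adjusted p = 0.0555). RR18, RR19, RR22 and RR23 had adjusted p-values of 0.413 to 0.783, and 10.5% of all probe sets passed this test. The mean change over the 3 times was -0.44 on the log2 scale for RR16 (95% interval -0.76 to -0.12, limma adjusted p = 0.0658). For ARR15 it was -1.24 (95% interval -2.05 to -0.43, limma adjusted p = 0.0411). The ARR15 size rests in part on induced arrays at background, 1, 2 and 3 of 3 at 6 h, 12 h and 24 h. Over the alternatives it ran from -1.43 to -0.36. The contrast for the mean change passed for 12.5% of all probe sets. Leaving out 1 array lost the RR16 call on the F in 6 of 18 fits (adjusted p up to 0.141) and the ARR15 call on the mean in 10 of 18 (adjusted p up to 0.0871). For RR16 these were any 1 of the arrays without induction at 24 h, the second or the third induced array at 24 h, and the first array without induction at 12 h.

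Followed through time, the 24 h difference of RR16 went with a rise in plants without induction. In induced plants RR16 averaged 14.9 ± 1.35 at 6 h, 14.7 ± 3.48 at 12 h and 16.2 ± 4.18 at 24 h. In plants without induction it averaged 13.8 ± 1.58, 17.9 ± 1.97 and 34.4 ± 2.69 (SD, n = 3 each). Ordered by level, plants without induction at 24 h stood apart at the top, and the ranges of the other 5 groups, from 10.6 to 20.6, each overlapped with their neighbour in the order. From 6 h to 24 h the log2 change was 0.09 in induced plants (95% interval -0.46 to 0.64, limma adjusted p = 0.906) and 1.32 in plants without induction (95% interval 0.77 to 1.87, limma adjusted p = 0.00259). From 12 h to 24 h the change without induction was 0.94 (95% interval 0.39 to 1.49) and missed the threshold (limma, adjusted p = 0.0937). It passed in 3 of 28 alternatives, with the offset of 16 (0.57, adjusted p = 0.0156), with signals raised to background and with array weights.

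Whether the response of RR16 differed between times was tested directly and did not pass. The effect of induction at 24 h was more negative than at 6 h by a log2 value of -1.24 ± 0.37 (SE; 95% interval -2.01 to -0.46; limma, unadjusted p = 0.00351, adjusted p = 0.109). Against 12 h the 24 h effect differed by -0.80 (95% interval -1.58 to -0.02, limma adjusted p = 0.703). For ARR15 the 24 h effect differed from that at 6 h by -2.44 (95% interval -4.43 to -0.44, limma adjusted p = 0.233). By limma 0 members passed in any of these 3 tests, with 2 at an unadjusted p under 0.05 for 24 h against 6 h, 0 for 12 h against 6 h and 1 for 24 h against 12 h. Of all probe sets 1.61%, 0.193% and 0% passed these tests in that order, and 14.1%, 10.6% and 6.99% had an unadjusted p under 0.05.

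ARR15 showed no change with time past the test. It averaged 7.85 ± 2.29, 4.36 ± 2.45 and 3.58 ± 2.45 in induced plants at 6 h, 12 h and 24 h, with 1, 2 and 3 of 3 arrays at background. Without induction it averaged 7.80 ± 3.26, 11.4 ± 6.60 and 15.2 ± 4.55 (SD, n = 3 each), with 1, 1 and 0 arrays at background. Neither the log2 change of -1.43 from 6 h to 24 h in induced plants nor that of 1.01 without induction passed limma (adjusted p = 0.235 and 0.400). Among the 6 members, RR16 from 6 h to 24 h without induction was the 1 change with time that passed. In plants without induction 9.86% of all probe sets passed from 6 h to 24 h, 2.91% from 6 h to 12 h and 1.45% from 12 h to 24 h. In induced plants 7.81%, 1.89% and 3.43% did over the same spans, and by limma 0 members, with 1 (ARR15), 0 and 0 at an unadjusted p under 0.05. That was so for 20.5%, 14.6% and 14.6% of all probe sets.

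RR18, a type-B gene known for a part in osmotic stress responses of germinating seeds, gave no difference past the test. It read 11.9, 4.26 and 6.40 in induced plants at 6 h, against 8.15, 4.99 and 4.69 in plants without induction (limma, adjusted p = 0.939). At 12 h it read 4.98, 3.60 and 7.73 in induced plants, against 2.95, 0.60 and 11.5 in plants without induction (limma, adjusted p = 0.656). At 6 h and again at 12 h, 1 of 3 induced arrays and 2 of 3 without induction were at background. At 24 h all 3 induced arrays, at 0.80, 4.78 and 2.86, were at background, against 3.83, 10.7 and 6.48 without induction, of which the first was at background too. The arrays overlapped at each time, and the 24 h difference did not pass (limma, adjusted p = 0.325). No fold can be given at 24 h. On the log2 scale, the mean signal without induction did not exceed the mean background level of the induced arrays.

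RR19, another type-B gene, read 5.60, 5.24 and 3.48 in induced plants at 6 h, against 5.53, 3.03 and 7.93 in plants without induction (limma, adjusted p = 0.973). At 12 h it read 5.10, 5.86 and 9.60 in induced plants, against 6.09, 2.23 and 0.37 in plants without induction. Arrays at background numbered 2 of 3 in each group at 6 h, and 1 induced and 2 without induction at 12 h. The 12 h log2 change of RR19, 1.94, had a 95% interval of 0.21 to 3.67 and did not pass (limma, adjusted p = 0.230). With signals under background raised to it, that change was 0.21. At 24 h the induced arrays, at 2.67, 2.96 and 5.47, were all at background, and those without induction read 1.03, 6.42 and 3.77.

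RR23, a type-B gene, and RR22, the type-C gene, were at background on all arrays, so that their changes were not measured. RR23 lay between 0.21 and 2.63 in induced plants and between 0.19 and 4.84 in plants without induction. RR22 lay between 0.23 and 0.84 in induced plants and between 0.17 and 0.70 in plants without induction. A transcript level under the detection of these arrays is therefore all that can be stated for this pair.

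Set side by side at 24 h, the type-A genes RR16 and ARR15 had log2 changes of -1.12 and -2.37, that of ARR15 fitted on induced signals at background. For RR18 and RR19, also with all 3 induced arrays at background, the fitted intervals at 24 h were -3.29 to 0.23 and -1.46 to 1.99. Both were wide enough to hold a change as large as that of RR16, and neither change counts as measured. Type-A and type-B genes are thus not shown to differ in response. The median log2 change over the 6 members was 0.09 at 6 h, 1.02 at 12 h and -0.87 at 24 h, against 0.04, 0.04 and 0.02 over all probe sets. The 12 h and 24 h medians lean on members at background.

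Other genes of the cytokinin pathway were drawn from 10 lists of receptors, phosphotransfer proteins, response regulators, enzymes of synthesis and of breakdown or conjugation, transporters, response factors and pseudo-response regulators. Of their 85 entries 8 matched a probe set with a single gene name in the annotation used here, the 6 members and 2 more. These were UGT76C1 and UGT76C2, glucosyltransferases that attach glucose to a ring nitrogen of cytokinins and so inactivate them. By limma 0 of the pair passed at 6 h, both with an unadjusted p under 0.05 (0.0227 for UGT76C2 and 0.0172 for UGT76C1). UGT76C2 passed at 12 h and at 24 h, lower in induced plants.

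UGT76C2 read 18.6, 12.6 and 17.9 on the induced arrays at 24 h, against 52.2, 46.2 and 50.5 without induction. The groups were far apart, and all arrays were above background. The mean was 16.4 ± 3.25 in induced plants and 49.6 ± 3.06 in plants without induction (SD, n = 3 each), with a log2 change of -1.62 ± 0.21 (SE; limma, adjusted p = 3.18e-05). UGT76C2 was 3.08-fold lower in induced plants. At 12 h it read 35.9, 46.7 and 32.0 in induced plants, against 63.5, 70.0 and 58.4 in plants without induction (log2 change -0.76, 95% interval -1.19 to -0.32, limma adjusted p = 0.0402). At 6 h the arrays overlapped, at 28.3, 35.6 and 33.3 in induced plants and 49.3, 59.1 and 33.8 in plants without induction (limma, adjusted p = 0.291). The 12 h call was lost in 9 of 29 alternatives, with adjusted p by limma up to 0.177. Among these were 7 of the 18 fits that left out 1 array, 5 of them without an array of that time.

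Through time, UGT76C2 changed in induced plants. There it fell by 1.00 on the log2 scale from 6 h to 24 h and by 1.23 from 12 h to 24 h (limma, adjusted p = 0.0043 and 0.0017). Without induction the change from 6 h to 24 h was 0.10 (95% interval -0.34 to 0.54, limma adjusted p = 0.831). The induction effect at 24 h was more negative than at 6 h by -1.10 (95% interval -1.72 to -0.48), short of the threshold (limma, adjusted p = 0.0674). It passed in 5 of 29 alternatives, with adjusted p down to 0.0337. At 6 h UGT76C1 read 45.0, 45.2 and 40.4 in induced plants, against 35.0, 27.1 and 33.6 in plants without induction, with no overlap (log2 change 0.46, limma adjusted p = 0.259). At 24 h its arrays overlapped. UGT76C1 then read 41.7, 36.5 and 32.6 in induced plants, against 37.2, 31.9 and 28.5 in plants without induction (log2 change 0.18, 95% interval -0.18 to 0.55, limma adjusted p = 0.625). The 24 h interval of UGT76C2 ran from -2.06 to -1.18, and the difference between the pair was not tested.

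**Figure D3:**
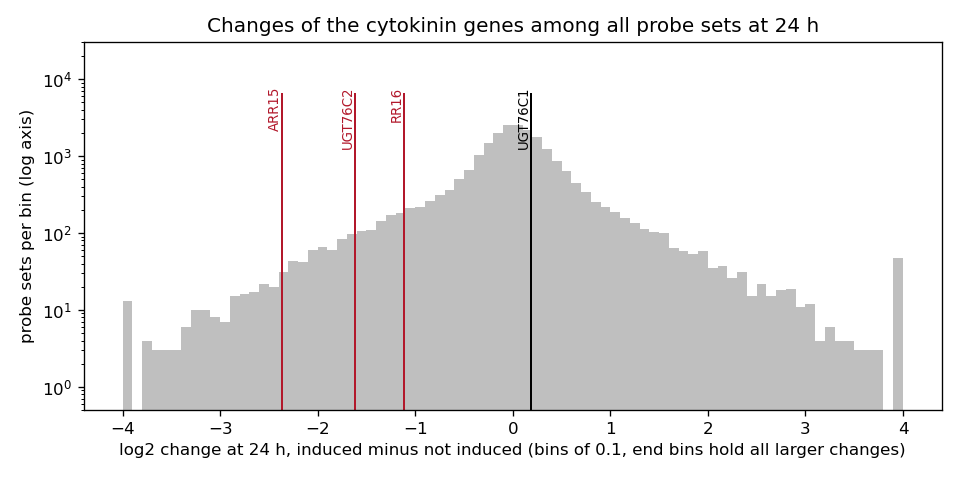
Number of probe sets (y axis, log scale) by log2 change at 24 h, induced minus not induced, in bins of 0.1, with larger changes collected in the end bins. Red lines mark ARR15, UGT76C2 and RR16, which passed the adjusted test on the lower side (ARR15 at its fitted value, from induced signals at background), and the black line marks UGT76C1, which did not pass.

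Markers of the tissues in a seedling were set beside these results. Of 9 root and root hair genes 3 were measured. The root hair expansin genes EXPA7 and EXPA18 read 10.0 to 11.1 and 15.9 to 23.9 on induced arrays at 24 h, against 36.6 to 51.5 and 53.3 to 66.6 without induction (limma, adjusted p = 0.000507 and 3.18e-05). PYK10, a root beta-glucosidase gene, read 3143 to 3360 on induced arrays, against 3801 to 4046 without induction, a change that did not pass (limma, adjusted p = 0.208). The summed signal of the 3 root genes, which is almost wholly that of PYK10 and so adds nothing to it, was 3171 to 3386 on induced arrays and 3891 to 4164 on those without induction at 24 h. Both expansin genes were also lower in induced plants at 6 h (limma, adjusted p = 0.0316 and 0.0477). Those calls were lost in 8 and 19 alternatives, with adjusted p by limma up to 0.125 and 0.198. The timing of these genes against that of the regulators was not tested. Of 4 leaf genes 2 were measured, LHCB4.1 and RCA, with a summed signal of 7987 to 11448 on induced arrays and 8214 to 9070 on those without induction at 24 h. CLV3, the 1 measured gene of 4 for the shoot meristem, was at background on all arrays, and 0 of 6 root meristem and cap genes and 0 of 7 vascular genes were measured. The part of tissue composition in the regulator results was not tested.

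**Figure D4:**
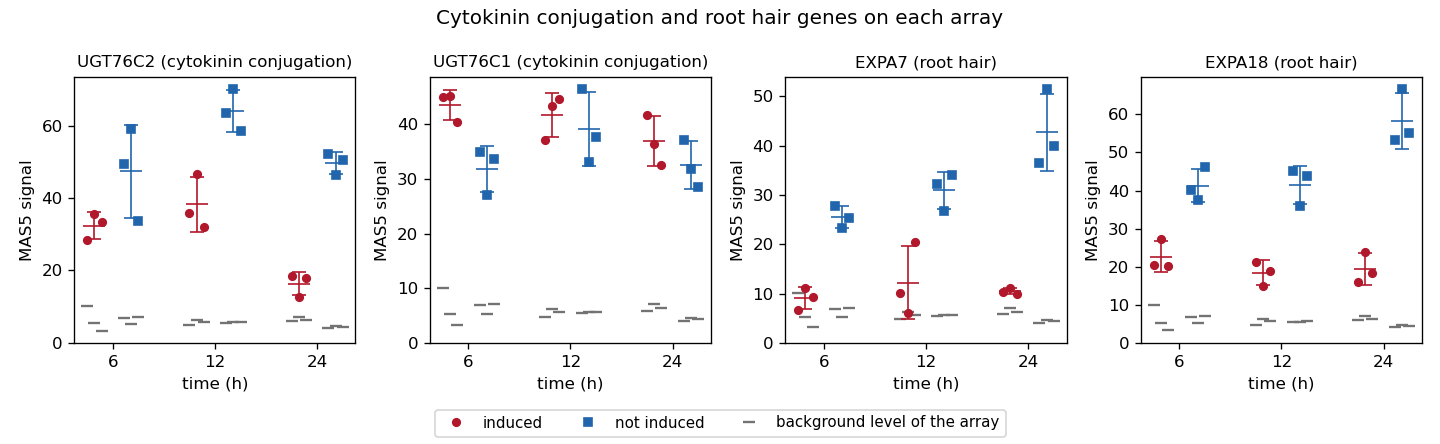
MAS5 signal (y axis, linear) against time in hours for the cytokinin conjugation genes UGT76C2 and UGT76C1 and the root hair genes EXPA7 and EXPA18, drawn as 1 point per array with the group mean ± SD (n = 3), induced plants in red circles, plants without induction in blue squares and background levels as grey dashes. UGT76C2 is lower in induced plants at 12 h and 24 h, both root hair genes at all 3 times, and UGT76C1 at none.

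The genes whose log2 signal followed RR16 most closely over the 18 arrays, among 7306 probe sets with 1 gene and a mean signal above the 40th percentile, were AT1G74770, AT4G28650 and MAP1C, with Pearson's r of 0.84, 0.83 and 0.82. AT4G28650 is annotated as a PXY-like gene and MAP1C as a methionine aminopeptidase. At 24 h AT1G74770 read 25.3, 28.4 and 26.4 on induced arrays, against 70.4, 65.8 and 61.8 without induction. AT4G28650 read 26.0, 24.7 and 24.4 on induced arrays, against 43.9, 46.3 and 60.2 without induction. For ARR15 the closest were AT5G05520, AT3G02220 and AT5G39840, with r of 0.81, 0.80 and 0.78. These values describe likeness on shared arrays and groups and carry no test.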

How the data were processed

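The authors deposited array intensity as MAS5 signals, and the submitters' processing notes also name GCOS. The sources used here do not give versions or a scaling target. Labelling was with biotin in 1 cycle, per the labels. Of 22810 probe sets 64 controls were left out. Gene names came from the annotation table provided (13513 probe sets with 1 gene, 503 with several, 8730 with none) and from RefSeq loci. Log2 signals were fitted across all probe sets with limma 3.58.1 (R 4.3.3), 1 mean per group over 18 arrays, a variance trend with intensity, 12 residual degrees of freedom and 7.69 prior ones. Adjustment followed Benjamini and Hochberg over all probe sets of a contrast, calls were made at 0.05, and the fit was checked on simulated data. With 3 arrays a group, their number limits the precision, and p-values measure the spread between these samples, which may be technical. A fold against a group at background on all arrays used the higher of the background level and the gene's own signal. All members and all measured genes of the lists past the threshold were named. So were the 3 genes most like each member above background on at least 9 arrays. Beside MGH3, the list of male germline genes had TET11 measured. TET11 was higher in induced plants at 6 h, 12 h and 24 h (limma, adjusted p = 0.0026, 0.000454 and 1.53e-05). Members and lists were chosen with earlier results of these data known. Tables used Python 3.11.15, pandas 2.3.3 and numpy 2.4.6, and figures matplotlib 3.10.9. The alternatives were other scalings, a signal filter, an offset of 16, signals raised to background, no trend, weights per array, a replicate block, leaving out probe sets of several genes, the arrays compared alone, hybridisation controls as a covariate, and leaving out each array. Sequences of the genes are not used here.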

Additional observations from a re-analysis of the deposited data

How the results depend on the processing

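Across 95 values and up to 29 alternatives each, 0 values past the threshold changed sign, and 54 sign changes concerned values past it in neither setting. RR16 and ARR15 fell under the signal filter and have no value there. For induction at 24 h, RR16 missed the threshold with the hybridisation controls as a covariate (-0.95), and over the fits that left out 1 array it ran from -1.31 to -0.94. ARR15 at 24 h missed it with no intensity trend and with the arrays compared alone (-2.37 in both, adjusted p by limma 0.0637 and 0.0556) and with the covariate (-1.81), and ran from -2.89 to -1.62, with calls lost without induced arrays 2 or 3 or arrays 2 or 3 of the plants without induction. The rise of RR16 from 6 h to 24 h without induction missed the threshold with the covariate (1.1). The difference of its response between 24 h and 6 h passed with the offset of 16 (-0.71). For the mean over times, ARR15 missed it with no trend (-1.24) and in 10 of 18 fits that left out 1 array, running from -1.43 to -0.99: arrays 1 or 2 of plants without induction at 6 h and 12 h and 2 or 3 at 24 h, and induced arrays 1 or 3 at 6 h, 3 at 12 h and 2 at 24 h. RR16 passed with quantile normalization (-0.49), each array at 1 median (-0.50), the offset (-0.25), raised signals and no trend (-0.44 in both) and array weights (-0.47), and ran from -0.50 to -0.37. The F over all times for RR16 was 4.22 with the covariate, below the threshold, and 4.18 to 7.51 over left-out arrays, below the threshold in 6 of 18. That of ARR15 passed at 5.90 with 1 median, 7.41 with the offset, 6.23 with raised signals, 7.75 with array weights and 6.13 with the replicate block, and ran from 3.95 to 7.12. Called probe sets at 6 h numbered 137 with the covariate, 67 with the arrays compared alone and 98 to 262 over left-out arrays (98 without induced array 3, 124 without induced array 2), against 220. At 12 h they ran from 615 (without induced array 2; 704 without array 3 of plants without induction) to 1190, against 1102. At 24 h they ran from 1161 (without induced array 3; 1230 without induced array 2 and 1210 without array 3 of plants without induction) to 2061, with 2974 under array weights, against 1894. With 1 median per array the calls split into 795 higher and 1163 lower at 24 h, against 1007 and 887, into 492 and 620 at 12 h, against 662 and 440, and into 89 and 133 at 6 h, against 130 and 90. Raising signals to background moved the median change of all probe sets at 24 h to 0.13, against 0.02. Replicate numbers did not pair the arrays, with correlations of same-numbered deviations from -0.13 to 0.10. With the replicate block the call of UGT76C2 at 12 h was lost (adjusted p by limma 0.0508), and RR16 and ARR15 kept their 24 h calls (0.0129 and 0.0282). The cause of these shifts was not tested. Signals near background limit RR18, RR19, RR22, RR23 and induced ARR15.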

Other observations

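RR16 and ARR15 varied together only in part. Over the 18 arrays their log2 signals had a Pearson's r of 0.55, and of 0.38 for deviations from the group means, values that share arrays and scaling and carry no test. For RR16 and RR18 the r over the 18 arrays was -0.01, and for RR16 and RR19 it was -0.28.

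RR22 was separate between groups at signals under background. At 12 h it read 0.60, 0.41 and 0.84 on induced arrays, against 0.23, 0.17 and 0.23 without induction, and at 24 h 0.30, 0.32 and 0.41 on induced arrays, against 0.54, 0.52 and 0.50 without induction. Groups without overlap were found for 24.0% of all probe sets at 12 h and 26.5% at 24 h.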
